A study of Mus musculus with 8 samples.

Results

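The matrix metalloproteinases (Mmp genes), the ADAMTS proteinases (Adamts genes) and the tissue inhibitors of metalloproteinases (Timp genes) were examined in epididymal white adipose tissue, the fat pad beside the epididymis of male mice. Members were all genes whose single annotated symbol starts with Mmp, Timp or Adamts followed directly by a number, and for each gene the probe set with the highest mean over the 8 arrays was kept. This gave 44 genes of the 22180 named on the array, namely 22 Mmp, 4 Timp and 18 Adamts genes. Mmp15 and Adamts2 had no probe set with a single symbol and were not analysed here. Expression was measured on Affymetrix Mouse Gene 2.0 ST arrays in 3 wild type (WT) mice and 5 Abhd15 knockout (KO) mice, with 1 array per mouse. ABHD15 is a protein of adipocytes with an alpha/beta-hydrolase fold. All mice were males of C57BL/6J background on normal chow, were 14 weeks old, and were refed for 1 h after an overnight fast. The knockout is labelled only by the gene's name, so how the allele was made and whether KO and WT mice were littermates is not known here.

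Matrix metalloproteinases are zinc-dependent endopeptidases that are made as inactive precursors and cut collagens, elastin, proteoglycans and cell surface proteins. ADAMTS proteinases are secreted relatives with thrombospondin-type repeats, and among them are the enzymes that cleave aggrecan and versican, those that trim procollagens, and the protease of von Willebrand factor. TIMPs are small secreted proteins that bind the active sites of these enzymes. In fat, the balance between the enzymes and their inhibitors is known for its part in the remodelling of the matrix around adipocytes and of the blood vessels as the depot grows.

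All values below are log2 expression values of the array, and differences are KO minus WT. Levels of different genes come from different probes and were not set against each other. The test covered the brighter genes, whose mean over the arrays reached the median of all gene means (3.61), 11090 genes in all. Of the 44 members, 21 passed this filter, namely 9 Mmp, 3 Timp and 9 Adamts genes. The tests used limma with Benjamini-Hochberg adjustment over the 11090 genes, and for single genes an exact permutation test (two-sided) was run too, whose smallest possible p with 3 against 5 arrays is 0.0357. In a whole tissue, a lower value can come from fewer cells of a type or from less RNA per cell, and these cannot be told apart.

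The arrays were alike in their distributions, with array medians of 2.93 to 3.12. The brighter Abhd15 probe set read 6.32 ± 0.157 in WT and 5.89 ± 0.271 in KO (SD, n = 3 and 5), with KO 3 inside the WT range at 6.27 (exact permutation p = 0.0714). The dimmer probe set differed by -0.70 (exact permutation p = 0.107). Where they lie relative to the deletion is not known here, so they check the genotype only in part. The mean of 7 adipocyte markers was 10.37 to 10.62 in WT and 10.15 to 10.71 in KO, which fits the labelled tissue. Testis markers (8 measured) had their highest means in WT 1 at 5.97, WT 2 at 5.03 and KO 4 at 4.56, and markers of the epididymis and seminal ducts (14 measured) in KO 4 at 3.80 and WT 1 at 3.07. The immediate early gene Egr1 read 8.81 in KO 1, 8.32 in KO 2 and 6.05 in KO 3 and at most 5.22 on every other array. The counts of members are therefore also given without WT 1 and KO 4 and without KO 1 and KO 2.

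Of the Mmp genes with a RefSeq promoter window 10 lie on chromosome 9. Their sequences are shown first because 8 of them match the pattern searched for the element of Fos and Jun family proteins. Windows of RefSeq (assembly GRCm38.p6) around each gene's start, most of each lying upstream of it, were at hand for 30 of the 44 members, as 33 windows. The AP-1 motif, TGANTCA, read on both strands, was present in 8 of the 33 member windows and in 7.81% of the 32851 windows of all genes. All 8 belonged to different Mmp genes of chromosome 9, while none of the 20 members with a window on other chromosomes held it. In the gene order of that assembly, Mmp13, Mmp12, Mmp1b, Mmp3, Mmp1a, Mmp10, Mmp8, Mmp27, Mmp20 and Mmp7 follow each other with no other protein-coding gene between them. The stretches below run 5′ to 3′ on the strand of the gene, with the motif in capitals and 20 bases on either side.
Mmp13, chr9:7272459-7272505, plus strand: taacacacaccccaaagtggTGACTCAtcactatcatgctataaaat
Mmp12, chr9:7347310-7347356, plus strand: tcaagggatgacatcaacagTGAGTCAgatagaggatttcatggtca
Mmp1b, chr9:7388093-7388139, minus strand: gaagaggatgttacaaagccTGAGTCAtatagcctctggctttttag
Mmp3, chr9:7445756-7445802, plus strand: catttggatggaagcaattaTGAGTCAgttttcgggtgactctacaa
Mmp1a, chr9:7464048-7464094, plus strand: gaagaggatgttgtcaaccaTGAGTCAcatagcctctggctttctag
Mmp10, chr9:7502259-7502305, plus strand: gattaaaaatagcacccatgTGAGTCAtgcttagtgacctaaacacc
Mmp20, chr9:7628116-7628162, plus strand: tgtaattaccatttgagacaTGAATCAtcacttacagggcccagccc
Mmp7, chr9:7692007-7692053, plus strand: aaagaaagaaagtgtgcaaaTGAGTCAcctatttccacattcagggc

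The motif began between 35 bases (Mmp13) and 95 bases (Mmp20) upstream of the start. The search left its middle base open, and that base is A in Mmp20 and C or G in the others. Mmp12 and Mmp7 each have a further window, at another start, without the motif. A match is a description of the letters and says nothing of binding in fat. Of the 8 genes, Mmp12 and Mmp7 were bright enough for the test. The other 6 stayed between 1.24 and 2.91 on all 8 arrays, in the range of dim probe sets. This dim range held on KO 1 and KO 2 too, the arrays on which Fos read 6.10 and 6.63, against 3.41 to 3.76 in WT. Differences are compressed in that range, and the part of AP-1 in these values was not tested. The plot of motif positions sets each gene's array values beside its match.

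**Figure D1:**
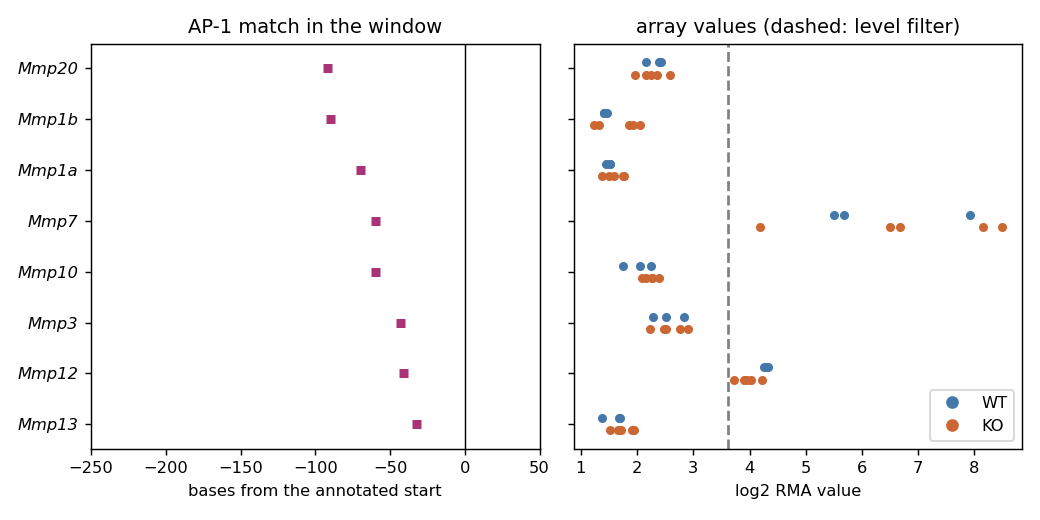
Left, position of the AP-1 match (bar) in bases from the annotated start (x axis) for the 8 Mmp genes that hold it; right, log2 value of each WT and KO array (points), with the level filter of 3.61 dashed. Only Mmp12 and Mmp7 reach past the dashed line, and the other 6 lie between 1.24 and 2.91.

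No member passed the test at an adjusted p of 0.05 in limma, and no gene of the array did (0.0% of 11090). Before adjustment, 4 of the 21 tested members had a p under 0.05, all lower in KO: Adamts1, Mmp11, Adamts15 and Mmp12. That is 19.0% of the tested members, beside 10.5% of all tested genes in either direction and 6.46% of all tested genes in the lower direction. The count was 1 (Adamts1) without WT 1, the array highest in testis markers, where 6.72% of all tested genes had such a p, and 3 without KO 1 and KO 2, where 9.49% had. With the replicate number as a block, a pairing of the arrays by number, it was 6 beside 18.0% of all tested genes. Mmp12 was then no longer among them, Adamts9 joined as lower, and Adamts12 and Mmp9 joined as higher in KO, so that not all were lower. KO 4 and KO 5 have no WT array of their number. The difference in the block fit therefore comes from WT 1 to 3 and KO 1 to 3 only. For 3 members, all 5 KO arrays lay below all 3 WT arrays (Adamts1, Adamts15 and Mmp12), and no member lay above. Of all tested genes, 8.53% had groups that did not overlap, 5.54% with KO lower. This count was 6 without WT 2, where 14.7% of all tested genes had such groups, and 1 (Mmp12) after centring every array on its own median, where 7.11% had.

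KO was the lower group for 15 of the 21 tested members and the higher for 6, and the median difference was -0.14. Over all tested genes 55.2% were lower and the median was -0.03, so the whole comparison leans slightly downward as well. By family, 6 of 9 Mmp, 2 of 3 Timp and 7 of 9 Adamts genes were lower, with medians of -0.12, -0.05 and -0.26. The 95% interval of the difference held 0 for 17 of the 21. The plot of differences orders them from Adamts1 at -0.94 to Mmp7 at 0.44, and Mmp7 has by far the widest interval. The heat map of deviations shows that no array is high or low for all members at once. The number of lower members depends on the arrays used, and was 11 of the 21 without WT 2, with a median of -0.01.

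**Figure D2:**
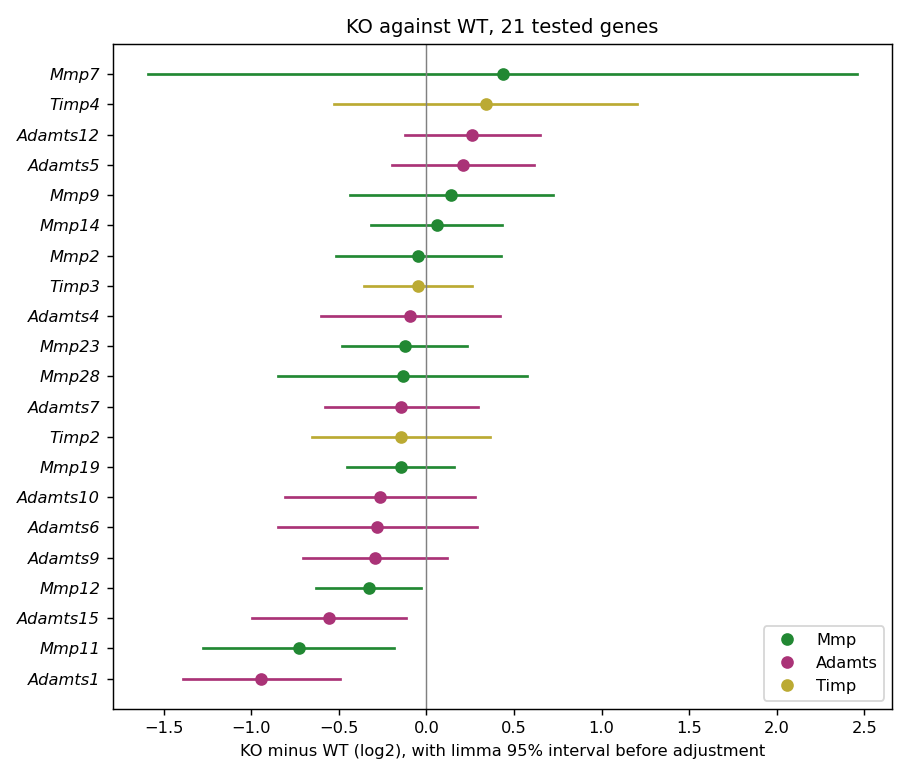
KO minus WT difference (log2, x axis) of the 21 tested members (y axis), with 95% intervals from limma; 3 WT and 5 KO arrays. The intervals of Adamts1, Mmp11, Adamts15 and Mmp12 lie below 0, and the other 17 hold 0.

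**Figure D3:**
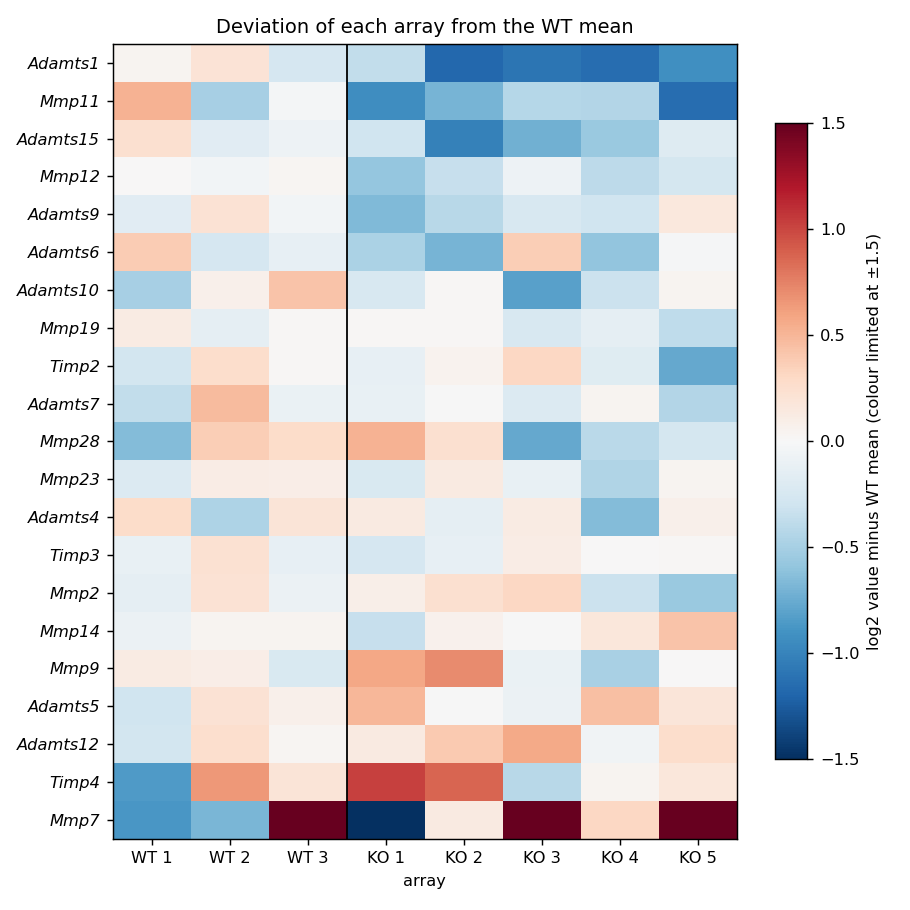
Log2 value of each array (columns) minus the WT mean (colour, limited at both ends) for the 21 tested members (rows, ordered by difference). Adamts1 is below the WT mean in all 5 KO arrays, least in KO 1, and Mmp7 ranges most widely within both groups.

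Of the 7 ADAMTS genes whose enzymes cleave proteoglycans 5 were tested, and 4 were lower and 1 higher in KO, with a median difference of -0.29. Adamts1, a secreted protease of versican and aggrecan that is also known to restrain angiogenesis, read 8.12, 8.29 and 7.83 in WT 1 to 3 and 7.71, 6.90, 6.99, 6.94 and 7.16 in KO 1 to 5. Every KO array was below every WT array, with KO 1 nearest to them and the other 4 close together. The means were 8.08 ± 0.234 (SD, n = 3) and 7.14 ± 0.334 (SD, n = 5), a difference of -0.94 (SE 0.201, 95% interval -1.39 to -0.49) or 1.92-fold lower. The limma p was 0.000854 before and 0.186 after adjustment, and the exact permutation p was 0.0357, the smallest possible. Over 18 alternatives the adjusted p lay between 0.0696 and 0.642, and the unadjusted p was under 0.05 in all 18.

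**Figure D4:**
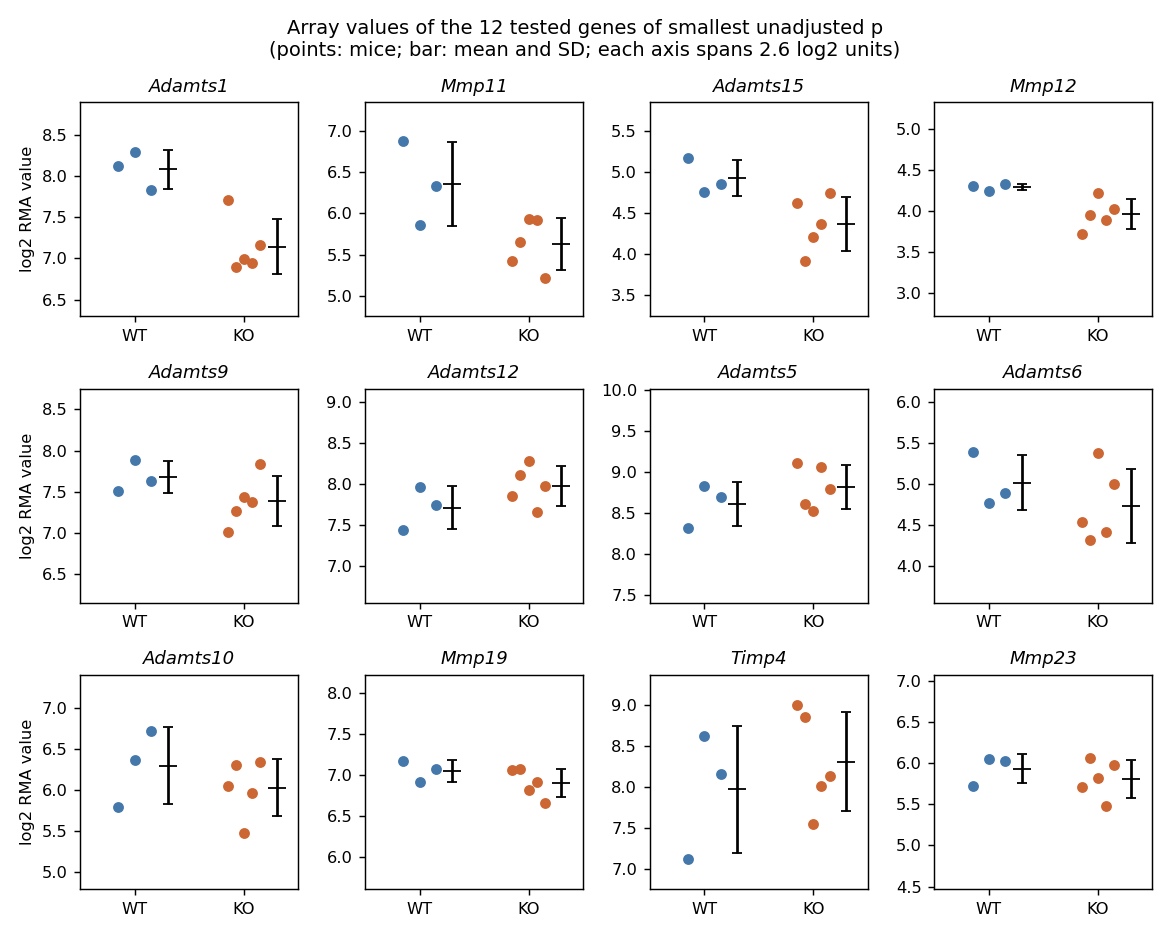
Log2 value in each mouse (points) for the 12 tested members of smallest unadjusted p, WT (3) and KO (5), with the mean and SD of each group; all y axes span the same number of log2 units. The KO points of Adamts1, Adamts15 and Mmp12 lie wholly below the WT points, and the other 9 panels overlap.

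Adamts1 lies next to Adamts5 on chromosome 16, with no other protein-coding gene between them. The 100 bases before its start, printed because Adamts1 has the smallest p of the members, hold the letters TATAAA, shown in capitals, and no AP-1 motif. TATAAA, read on both strands and unable to overlap TGANTCA, was present in 11 of the 33 member windows and in 13.6% of all windows. Apart from Adamts1 and Mmp21, the members that held it were all Mmp genes of the chromosome 9 run.
Adamts1, chr16:85803114-85803213, minus strand: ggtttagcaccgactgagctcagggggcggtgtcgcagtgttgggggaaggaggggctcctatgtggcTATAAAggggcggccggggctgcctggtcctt

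The genes whose deviations from their group means were most like those of Adamts1 were R3hdm1 (r = 0.969), Shkbp1 (0.967) and Trappc1 (0.956). This likeness is over 8 arrays that all share 1 tissue and 1 labelling method, and KO 1 is the highest KO array for each of the 3 as it is for Adamts1. Adamts1 is made by endothelial cells among others, and the mean of 10 endothelial markers was 7.69, 8.04 and 7.94 in WT against 7.40, 7.57, 7.55, 7.49 and 7.75 in KO. Of these 10 markers 9 were lower and 1, Cldn5, was higher, by 0.61. An unadjusted limma p under 0.05 was found for 5 of the lower ones and for Cldn5, beside 10.5% of all tested genes. KO 1, where Adamts1 was highest among the KO arrays, was the lowest array for the endothelial markers. The part of vessel content in the Adamts1 difference was not tested.

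Adamts15, another protease of aggrecan and versican, read 5.17, 4.76 and 4.85 in WT and 4.62, 3.92, 4.21, 4.36 and 4.74 in KO. The groups did not overlap, but KO 5 was only just below WT 2. The difference was -0.56 (SE 0.196), or 1.47-fold lower, with a limma p of 0.0179 and an adjusted p of 0.368 (exact permutation p = 0.0357). Without WT 1 it was -0.43, and the unadjusted p was no longer under 0.05. Over the 18 alternatives the limma adjusted p of Adamts15 lay between 0.130 and 0.772. Its neighbour on chromosome 9, Adamts8, was among the untested members.

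Adamts9, a protease of versican that is active in endothelial cells, read 7.51, 7.89 and 7.63 in WT and 7.02, 7.27, 7.44, 7.38 and 7.84 in KO. The groups overlapped through KO 5, which was above WT 1 and WT 3. The difference was -0.29 (SE 0.184), with a limma adjusted p of 0.602, and without KO 5 it was -0.40, with an unadjusted p under 0.05. With the replicate block it was -0.44, again with an unadjusted p under 0.05. KO 1 and KO 5, its lowest and highest KO arrays, were also the lowest and highest KO arrays for the endothelial markers. Over the 8 arrays its deviations from the group means followed those of that marker list with r = 0.875, as a description. That was the highest r of the 21 tested members with this list. The lowest was -0.80 for Mmp19, and Adamts1 had -0.25. The part of vessel content was not tested.

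Adamts5, the main aggrecan-cleaving enzyme of cartilage in mice, read 8.31, 8.82 and 8.69 in WT and 9.11, 8.61, 8.52, 9.06 and 8.79 in KO. The groups overlapped, and the difference was 0.21 (SE 0.182, limma adjusted p = 0.720). Thus the neighbours Adamts1 and Adamts5 had differences of opposite sign, of which the second was about as large as its error. Adamts4, the other classical aggrecanase, read 4.83, 4.09 and 4.76 in WT and 4.70, 4.42, 4.68, 3.91 and 4.64 in KO, so that the groups overlapped over nearly their whole range. It differed by -0.09 (SE 0.228) with means of 4.56 ± 0.408 in WT and 4.47 ± 0.333 in KO (SD, n = 3 and 5).

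Adamts12 and Adamts7, which cleave cartilage oligomeric matrix protein, were both tested. Adamts12 read 7.43, 7.96 and 7.74 in WT and 7.85, 8.11, 8.28, 7.66 and 7.97 in KO. WT 1 was the lowest array, and the difference of 0.26 (SE 0.173) had a limma adjusted p of 0.621. With the replicate block it was 0.37 (SE 0.134, limma adjusted p = 0.243), with an unadjusted p under 0.05. Adamts7 was dim, at 3.86 ± 0.432 in WT and 3.72 ± 0.190 in KO (SD, n = 3 and 5), a difference of -0.14.

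Adamts6 and Adamts10, relatives that are linked to fibrillin microfibrils, were the remaining tested ADAMTS genes. Adamts6 read 5.39, 4.76 and 4.89 in WT and 4.54, 4.32, 5.38, 4.42 and 5.00 in KO. Of its KO arrays, 3 lay below all WT arrays and 2 did not, and the difference was -0.28 (SE 0.255, limma adjusted p = 0.733). Adamts10 read 5.79, 6.37 and 6.72 in WT and 6.05, 6.31, 5.48, 5.97 and 6.34 in KO. The groups overlapped, with a difference of -0.26 (SE 0.244, limma adjusted p = 0.740). It was -0.05 without WT 3 and -0.51 without WT 1, where the groups no longer overlapped.

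Among the matrix metalloproteinases, Mmp11 had the lowest value relative to WT. Mmp11, or stromelysin-3, is activated inside the cell by furin and is known for restraining the formation of adipocytes. It read 6.88, 5.86 and 6.34 in WT and 5.43, 5.66, 5.94, 5.92 and 5.21 in KO. KO 3 and KO 4 lay above WT 2, so the groups overlapped, and WT 1 was the highest array by a wide gap. The difference was -0.73 (SE 0.244), or 1.66-fold lower, with a limma p of 0.0136 and an adjusted p of 0.352 (exact permutation p = 0.107).

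Without WT 1 the Mmp11 difference was -0.47, and the unadjusted p was no longer under 0.05. A second, dimmer Mmp11 probe set read 5.31 ± 0.579 in WT and 4.99 ± 0.245 in KO (SD, n = 3 and 5), a difference of -0.32 (exact permutation p = 0.357), and it too was highest in WT 1. With the 2 probe sets averaged, the difference was -0.53, again with an unadjusted p above 0.05. The values of Mmp11 and of the testis markers were both highest in WT 1, and the part of those markers' source in the result was not tested. The 100 bases before its start, shown as those of the MMP with the lowest value relative to WT, hold no AP-1 motif and no TATAAA on either strand.
Mmp11, chr10:75932503-75932602, minus strand: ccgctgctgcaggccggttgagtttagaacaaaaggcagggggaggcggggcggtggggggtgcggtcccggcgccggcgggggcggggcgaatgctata

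Mmp12, the macrophage metalloelastase, read 4.30, 4.25 and 4.33 in WT and 3.72, 3.95, 4.22, 3.90 and 4.03 in KO. The WT arrays were close together, with an SD of 0.0395, and every KO array lay below them, KO 3 only just. The difference was -0.33 (SE 0.135), or 1.26-fold lower, with a limma p of 0.0344 and an adjusted p of 0.433 (exact permutation p = 0.0357). Its unadjusted p was under 0.05 in 8 of the 18 alternatives, and not with the replicate block, where the difference was also -0.33. The mean of 10 macrophage markers was 7.01 to 7.31 in WT and 6.83 to 7.29 in KO, which overlap. None of the 10 had an unadjusted limma p under 0.05, beside 10.5% of all tested genes. As its promoter stretch above shows, Mmp12 holds an AP-1 motif. Among the KO arrays it was lowest in KO 1 and highest in KO 3, and Fos was raised above the WT range in both. The part of AP-1 in its values was not tested.

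The gelatinases Mmp2 and Mmp9 cleave denatured collagen and the type IV collagen of basement membranes. Mmp2, made mainly by stromal cells, read 7.81, 8.16 and 7.86 in the WT arrays and 8.03, 8.19, 8.25, 7.63 and 7.38 in the KO arrays, and the KO arrays reached both above and below WT. The means were 7.94 ± 0.189 in WT and 7.90 ± 0.375 in KO (SD, n = 3 and 5), a difference of -0.05 (SE 0.211). Mmp9, typical of neutrophils and activated macrophages, read 5.79, 5.76 and 5.43 in WT and 6.24, 6.37, 5.56, 5.17 and 5.66 in KO. KO 1 and KO 2 lay above all other arrays, the same 2 arrays on which Egr1, Fos and Fosb were highest. The Mmp9 difference was 0.14 (SE 0.260, limma adjusted p = 0.879), and without KO 1 and KO 2 it was -0.19. With the replicate block it was 0.40 (SE 0.142, limma adjusted p = 0.236), with an unadjusted p under 0.05. Among the KO arrays, that fit draws on KO 1, KO 2 and KO 3 alone. The part of the immediate early response in the Mmp9 difference was not tested.

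Mmp14, the membrane-bound enzyme that activates pro-MMP2 at the cell surface and is known as a collagenase of adipose tissue, was the sole membrane-type member of 5 that passed the filter. It read 7.95, 8.08 and 8.08 in WT and 7.69, 8.10, 8.03, 8.21 and 8.47 in KO. The KO arrays lay on both sides of the narrow WT range, and the difference was 0.06 (SE 0.168, limma adjusted p = 0.925).

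Mmp19, Mmp23 and Mmp28 belong to none of the classical groups, and all 3 were slightly lower in KO. Mmp19, which cleaves basement membrane components, read 7.17, 6.91 and 7.07 in WT and 7.06, 7.07, 6.81, 6.91 and 6.67 in KO. The groups overlapped, with a difference of -0.15 (SE 0.137, limma adjusted p = 0.747). Mmp23 read 5.72, 6.05 and 6.03 in WT and 5.71, 6.07, 5.82, 5.48 and 5.98 in KO, a difference of -0.12 (SE 0.160, limma adjusted p = 0.824). Mmp28, or epilysin, read 4.75, 5.76 and 5.67 in WT and 5.92, 5.63, 4.62, 4.99 and 5.12 in KO, with both groups spread over more than 1 log2 unit. Its means were 5.39 ± 0.560 in WT and 5.26 ± 0.518 in KO (SD, n = 3 and 5), a difference of -0.14.

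Mmp7, or matrilysin, an enzyme of glandular and ciliated epithelia, varied more between mice than any other tested member. It read 5.50, 5.68 and 7.92 in WT and 4.19, 6.50, 8.49, 6.68 and 8.15 in KO. WT 3, KO 3 and KO 5 were high and KO 1 was low, so that the spread ran across both genotypes. The within-group SD was 1.59, at percentile 99.9 of all tested genes, whose median SD was 0.231. The difference was 0.44 (SE 0.908, 95% interval -1.59 to 2.46, limma adjusted p = 0.897), which leaves its direction undetermined.

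The genes most like Mmp7 within groups, looked up after its spread had been seen, were Dnah11 (r = 0.993), Fam216b (0.992) and Cfap44 (0.990) over the 8 arrays. Dnah11 is a motor and Cfap44 an associated protein of motile cilia. Cfap44 read 4.24, 4.63 and 6.00 in WT and 2.63, 4.42, 6.46, 4.85 and 6.15 in KO. Foxj1, the transcription factor that directs the building of motile cilia, read 3.59, 3.28 and 4.51 in WT and 2.51, 3.27, 4.61, 4.38 and 4.93 in KO. Both were therefore high in WT 3, KO 3 and KO 5 and lowest in KO 1, as Mmp7 was.

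A list of 20 motile cilia genes was drawn up after these values had been seen, and 18 of them were measured. Their mean, which includes Dnah11 and Cfap44, was 3.44, 3.21 and 4.02 in WT and 2.64, 3.40, 4.48, 3.60 and 4.33 in KO. Of the 16 other than Dnah11 and Cfap44, 12 were lowest in KO 1 and 13 were highest in WT 3, KO 3 or KO 5. The list was chosen because of the likeness already seen, so these counts are a description and no separate support. The share of all genes with this order was not counted. Of the 18, 8 were below the filter, and KO 1 had the lowest array median over all probe sets (2.93). The testis markers had another order in their mean, highest in WT 1 and WT 2, and so had the markers of the epididymis and seminal ducts, highest in KO 4 and WT 1. The latter mean pools unlike genes. Svs2, Svs4, Svs5 and Svs6 were highest in WT 1, and Adam7, Spink8, Lcn5 and Defb20 in KO 4. Adam7 also read 4.93 in KO 3 and 3.73 in KO 5, against 1.91 in WT 3 and 1.69 in KO 1. Spink8 and Lcn5 went the other way, at 1.70 and 3.03 in KO 3 against 2.67 and 3.44 in KO 1. Defb20 read 2.24 in KO 3 and 2.09 in KO 1. The source of the ciliary transcripts and their part in the Mmp7 values were not tested.

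**Figure D5:**
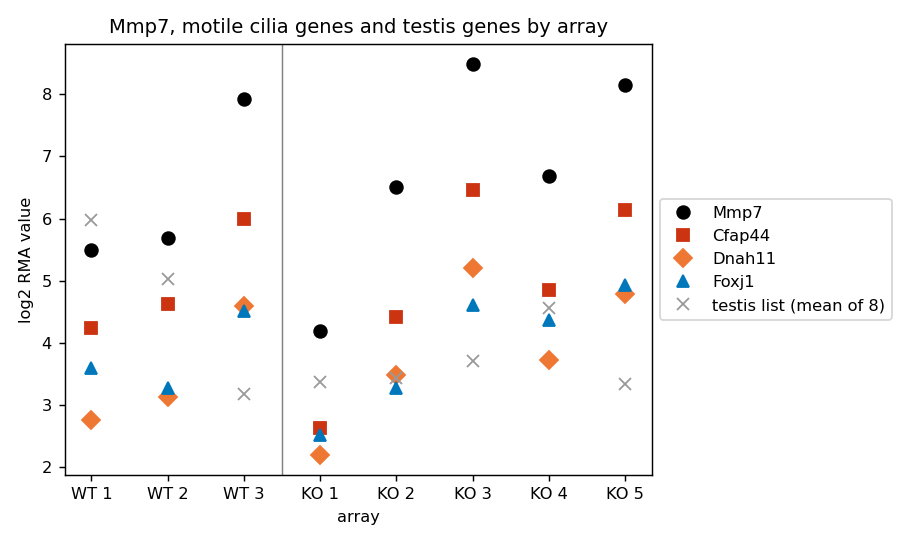
Log2 value by array (x axis, 3 WT and 5 KO) of Mmp7, of the motile cilia genes Cfap44, Dnah11 and Foxj1, and of the mean of 8 testis markers. Mmp7 and the 3 cilia genes are high in WT 3, KO 3 and KO 5 and lowest in KO 1, while the testis mean is highest in WT 1.

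The inhibitors gave no difference beyond their spread. Timp2, which blocks most MMPs and also takes part in pro-MMP2 activation by MMP14, read 9.45, 9.99 and 9.74 in WT and 9.60, 9.78, 10.03, 9.54 and 8.96 in KO. KO 5 was the lowest array and KO 3 the highest, and the difference was -0.14 (SE 0.227, 95% interval -0.65 to 0.36, limma adjusted p = 0.859). Timp3, the matrix-bound inhibitor that also blocks ADAMTS aggrecanases and ADAM17, read 8.11, 8.45 and 8.09 in WT and 7.96, 8.10, 8.33, 8.23 and 8.23 in KO. The groups overlapped closely, with a difference of -0.05 (SE 0.139, 95% interval -0.36 to 0.26, limma adjusted p = 0.929).

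Timp4, an inhibitor that is abundant in adipocytes, read 7.13, 8.62 and 8.16 in WT and 8.999, 8.85, 7.56, 8.01 and 8.14 in KO. WT 1 was the lowest array and KO 1 and KO 2 the highest. The difference was 0.34 (SE 0.388, 95% interval -0.53 to 1.20, limma adjusted p = 0.791), and it was -0.08 without WT 1 and -0.07 without KO 1 and KO 2. Timp1, the inducible inhibitor of inflamed tissue, was below the filter and read 3.23, 3.21 and 3.18 in WT and 2.68, 3.83, 2.27, 2.47 and 2.83 in KO. The KO arrays spread around the tight WT values, with KO 2 above and the other 4 below them. The difference was -0.39 (exact permutation p = 0.357).

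The 23 members that did not pass the filter had array values between 1.24 and 4.16. Among them were all 4 collagenases and both measured procollagen N-propeptidases, as well as Adamts13, the protease of von Willebrand factor. Besides Timp1, those with a mean over 3 in a group were Mmp27, Adamts16, Adamts14 and Mmp24. Mmp27 read 3.47 ± 0.124 in WT and 3.19 ± 0.172 in KO (SD, n = 3 and 5), a difference of -0.29 (exact permutation p = 0.0714). Adamts16 read 3.26 ± 0.468 in WT and 3.63 ± 0.507 in KO (SD, n = 3 and 5), with its highest value of 4.16 in KO 2. It was above the filter on 4 arrays and in its KO mean, but not in its mean over all arrays. Adamts14, a procollagen N-propeptidase, differed by 0.27 and Mmp24, a membrane-type enzyme, by 0.13. The others were Adamts3, Adamts8, Adamts13, Adamts17, Adamts18, Adamts19 and Adamts20, and Mmp1a, Mmp1b, Mmp3, Mmp8, Mmp10, Mmp13, Mmp16, Mmp17, Mmp20, Mmp21 and Mmp25. Differences over the 23 ran from -0.39 to 0.37. When all 22180 genes were tested with no filter, the same 4 of 44 members had an unadjusted limma p under 0.05, beside 8.44% of all genes, so the members' share was then near that of all genes.

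Genes that activate or restrain these enzymes were read from a list of 26, of which 24 were measured and 19 tested. KO was lower for 12 and higher for 7, and 1 in each direction had an unadjusted limma p under 0.05. That is 10.5% of the 19, the same as the 10.5% of all tested genes. Thbs1, the secreted protein thrombospondin-1, differed by 0.82 (SE 0.157, limma adjusted p = 0.153). Lrp1, the endocytic receptor that clears several MMPs, ADAMTS enzymes and TIMPs from the matrix, read 10.34, 10.17 and 10.18 in WT and 9.62, 9.65, 9.87, 9.70 and 10.03 in KO. All KO arrays lay below the WT arrays, as was so for 5.54% of all tested genes. The difference was -0.45 (SE 0.134, limma adjusted p = 0.313). Pcsk5, a proprotein convertase, differed by -0.43 (SE 0.202, limma adjusted p = 0.489).

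The related ADAM and membrane proteinases had 11 of 16 genes tested, of which 6 were lower and 5 higher in KO. The groups did not overlap for 18.2% of the 11, beside 8.53% of all tested genes. Mme, the cell surface peptidase neprilysin, differed by 0.86 (SE 0.162, limma adjusted p = 0.148) with all KO arrays above WT. Adam17, the sheddase of TNF, differed by -0.32 (SE 0.114, limma adjusted p = 0.371) with all KO arrays below WT, and Adam15 by -0.26 (SE 0.146). The ADAMTS-like proteins, which have the ancillary domains but no protease domain, had 5 of 7 genes tested, 4 lower and 1 higher. None had an unadjusted limma p under 0.05, beside 10.5% of all tested genes. Adamtsl5 differed by -0.35, Adamtsl4 by 0.34 and Adamtsl1 by -0.17.

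Of 30 listed substrates of these enzymes, 29 were measured and 24 tested. KO was lower for 15 and higher for 9. An unadjusted limma p under 0.05 was found for 1, or 4.17% of the 24, beside 10.5% of all tested genes. The gene was Postn, the matricellular protein periostin, with a difference of -0.55 (SE 0.146, limma adjusted p = 0.271) and no overlap between the groups. Col5a2, a chain of type V collagen, differed by -0.27 (SE 0.132), and Col4a1, a chain of the basement membrane collagen, by -0.31 (SE 0.159). Vcan, the versican core protein that ADAMTS1, ADAMTS9 and ADAMTS15 cleave, read 5.36 ± 0.138 in WT and 5.10 ± 0.320 in KO (SD, n = 3 and 5), a difference of -0.26 (limma adjusted p = 0.646).

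Of 14 listed factors that induce MMP promoters, 11 were measured and tested, with 6 higher and 5 lower in KO. Fosb read 2.79, 3.23 and 2.90 in WT and 6.34, 6.80, 5.72, 3.32 and 3.67 in KO. Fos read 3.76, 3.43 and 3.41 in WT and 6.10, 6.63, 5.18, 3.43 and 4.34 in KO. KO 1, KO 2 and KO 3 were far above WT for both, while KO 4 and KO 5 were near it. The differences were 2.20 (SE 0.743, limma adjusted p = 0.352) and 1.60 (SE 0.610, limma adjusted p = 0.405), and that of Egr1 was 1.95 (SE 0.973, limma adjusted p = 0.514). Of the 44 members, Mmp2, Timp2 and Adamts16 also had KO 1, KO 2 and KO 3 as their 3 highest KO arrays. How many of all genes have that order was not counted, so the number of members cannot be read as few or many. Among the 4 members of smallest p, the highest KO array was KO 1 for Adamts1, KO 3 for Mmp11 and Mmp12, and KO 5 for Adamts15. The part of these factors in the members' values was not tested.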

How the data were processed

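Gene expression was measured in epididymal fat of 3 WT and 5 Abhd15 KO mice, grouped by the sample titles, each on its own array from 200 ng of RNA. The deposited values are log2, for each probe set on each array. The submitters' processing notes name RMA (robust multi-array average) and oligo, while its design text gives Expression Console, so the tool that made the values is not settled. Tool versions and a genome build for the array were not given in the sources used here. RMA compresses differences of dim probe sets, and with 8 arrays small differences cannot be resolved.

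Of 41345 probe sets, 23521 had 1 gene symbol in the platform annotation, 1814 had several and 16010 had none listed. Symbols were updated by Entrez identifier for 23328. The brightest probe set of a gene was kept (1082 genes had several). Genes with a mean at or above 3.61 were tested with lmFit and eBayes of limma 3.58.1 under R 4.3.3, on all 8 arrays without covariates, two-sided, with Benjamini-Hochberg adjustment over 11090 genes. The permutation test used all 56 divisions of the arrays. The test was tried on simulated data first. Promoter windows were searched in Python 3.11.15, and figures drawn with matplotlib 3.10.9.

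All tested members are named, untested ones where they are Timps or have a group mean over 3, and up to 3 genes of smallest p per pathway list. Members and lists were chosen with earlier results of these data known, and the cilia list after the values had been seen. Replicate numbers are shared by WT and KO. Deviations of same-numbered arrays correlated at 0.133, 0.103 and 0.192, above the threshold of 0.1 used here. Arrays of different numbers were not compared in this way, so these values cannot show pairing. The labels do not say what the numbers stand for. The fit without the block remained the main one, and the block is given as an alternative. KO 4 and KO 5 have no WT array of their number. The block fit therefore compares WT 1 to 3 with KO 1 to 3 only. Nothing in the labels says more of the mice's origin. Alternatives were other centring and normalization, array weights, other filters and probe rules, the replicate block and leaving out arrays.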

Additional observations from a re-analysis of the deposited data

How the results depend on the processing

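Over 18 alternatives for each of the 21 tested members, no member reached a limma adjusted p of 0.05, and 11 kept their direction in all 18, among them Adamts1, Mmp11, Adamts15 and Mmp12. With the replicate block, 6 members had an unadjusted p under 0.05 (18.0% of all tested genes did), 4 of them lower, and no member passed after adjustment. KO 4 and KO 5, which have no WT array of their number, do not enter the difference in that fit. The number of members whose groups did not overlap was 1 with each array centred on its median and ran from 3 to 6 when leaving out 1 array at a time, beside 9.93% to 14.7% of all tested genes. The number with an unadjusted p under 0.05 ran from 1 (without WT 1, 6.72% of all tested genes) to 5 (without KO 5, 14.4%), and was 1 without WT 1 and KO 4 together (6.60%) and 3 without KO 1 and KO 2 (9.49%). Members with small differences changed sign. With array weights, Mmp14 was -0.024, Mmp2 0.040 and Mmp7 -0.00025, and with the replicate block Adamts4 was 0.041, Mmp14 -0.098, Mmp2 0.21 and Timp2 0.076. Without WT 1 and KO 4, Adamts4 was 0.19, Mmp14 -0.0105 and Timp4 -0.0073, and without KO 1 and KO 2, Mmp9 was -0.19, Timp3 0.046 and Timp4 -0.069. Leaving out 1 array at a time moved Adamts4 from -0.33 to 0.050, Adamts7 from -0.33 to 0.094, Mmp14 from -0.032 to 0.16, Mmp2 from -0.14 to 0.081, Mmp28 from -0.46 to 0.048, Timp2 from -0.28 to 0.011, Timp3 from -0.11 to 0.068 and Timp4 from -0.083 to 0.67. The cause was not tested. The share of lower genes among all genes with an unadjusted p under 0.05 was 61.5% as deposited, 51.3% after centring and 45.6% after quantile normalization. Of the 21 tested members, whatever their p, 15 were lower in each, which is another measure. The median difference of all tested genes was -0.028 as deposited, 0.005 after centring and 0.013 after quantile normalization. That of the members was -0.14, -0.10 and -0.09. Over all fits of these 21 members, the number lower ran from 11 without WT 2 to 17 without WT 1 and KO 4 together. The median difference of the members was -0.01 without WT 2. Low signal limits the 23 untested members.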

Other observations

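Mast cells store proteases that act on the same matrix. Of the 8 measured genes of the neutrophil and mast cell list, the 3 tested, Kit, Tpsb2 and Cpa3, are mast cell genes, and their differences were negative. Of these, 2 had an unadjusted limma p under 0.05, beside 10.5% of all tested genes in either direction and 6.46% in the lower. None passed after adjustment. Kit, the receptor for stem cell factor, differed by -0.54 (SE 0.141, limma adjusted p = 0.271). Tpsb2, a mast cell tryptase, read 5.19, 5.11 and 4.74 in WT and 2.64, 3.33, 4.18, 4.60 and 4.59 in KO, a difference of -1.15 (SE 0.417, limma adjusted p = 0.374). Its KO arrays all lay below the WT arrays, as was so for 5.54% of all tested genes. KO 1 and KO 2 were far lower than the rest. Cpa3, the mast cell carboxypeptidase, differed by -0.37 (SE 0.261), with overlapping groups. Mcpt4, a chymase, was below the filter and differed by -1.23 (exact permutation p = 0.0714). The neutrophil genes of the list, S100a8, S100a9, Cxcr2 and Ly6g, were below the filter and differed by 0.24, 0.0016, 0.19 and 0.05.

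Several members had a further probe set. The second Mmp7 probe set read 2.06 ± 0.106 in WT and 2.07 ± 0.530 in KO (SD, n = 3 and 5), and was highest in KO 3 and KO 5, as the brighter one was. The 2 Adamts8 probe sets, both dim, had differences of 0.22 and -0.20. The 2 Adamts14 probe sets had differences of 0.27 and 0.33. A probe set shared by Mmp24 and BC029722, which cannot be given to either gene, differed by 0.07 (exact permutation p = 0.536). Lcn2, the partner that binds MMP9, read 7.47, 8.44 and 8.57 in WT and 5.95, 8.18, 9.14, 8.07 and 8.43 in KO, lowest in KO 1.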
